A study of Homo sapiens with 10 samples.

Results

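Of 312601 pairs of HindIII fragments scored at 12 or more in any list, 5718 were called in both replicates of human neuroectodermal cells (NECs) and in no list of embryonic stem cells (ESCs). These NEC-only interactions were chosen by the CHiCAGO score alone, which weighs the reads that join a promoter fragment to a distant fragment against a background model. A pair had to score at least 12 in each of both NEC replicates and to be missing at that score from both ESC replicates and from the merged ESC list. They linked 3885 captured promoter fragments (baits) to 5166 promoter-interacting regions (PIRs), the fragments at the other end of a call. Pairs were read from bait to PIR, so a contact between baits could count from each end, as 80 such contacts did. An ESC call of such a contact from the other end alone did not remove it. Pairs with both ends on the same chromosome numbered 5699, and 19 pairs joined different chromosomes. The same rule in the opposite direction gave 5721 ESC-only interactions, and 7822 interactions were called in all 4 replicates.

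The ESCs were the line H9, and the NECs were H9 cells differentiated for 7 days, with no genetic change named for either. Promoter Capture Hi-C (PCHi-C), which joins pieces of DNA that lie close together in the nucleus and then enriches the joined pieces that hold a promoter, and RNA-seq were each performed on 2 replicates per cell type. All values therefore describe bulk cultures of a single cell line. Among marker genes, 9 of 10 neuroectoderm genes were higher in NECs and 8 of 9 ESC genes were lower, although the ESC genes still summed to 1128 and 1708 CPM (counts scaled to library size) in the NEC libraries against 6566 and 7013 in the ESC libraries.

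Enhancers are stretches of DNA that bind transcription factors and raise the transcription of genes that can lie far away along the chromosome. They are thought to reach promoters through looping of the chromatin fibre, and CTCF, a protein that halts the extrusion of loops by cohesin, marks the base of many loops. During neural induction, pluripotent cells shut down their own regulators and switch on factors such as PAX6, POU3F2 and NR2F1, while Notch, Wnt and FGF signals steer the choice between division and differentiation.

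To show what lay at the far end of these contacts, sequence is given for 7 named promoters whose NEC-only PIR was no bait and held a CTCF-like match, meaning CCA, any 2 bases, AG, any 2 bases and GGC, letters shared by many CTCF sites. They have the highest lower scores of both NEC replicates among the promoters described here outside the histone clusters. Positions are on GRCh37, each line reads 5′ to 3′ on the strand named, and the match stands in capitals between 36 bases on each side.
CXCR4 contact, chr2:137136485-137136568, minus strand: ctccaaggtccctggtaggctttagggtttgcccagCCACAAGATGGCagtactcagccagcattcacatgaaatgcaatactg
C3orf49 contact, chr3:63335416-63335499, plus strand: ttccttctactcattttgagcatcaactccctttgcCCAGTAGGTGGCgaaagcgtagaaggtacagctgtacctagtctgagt
JAG1 contact, chr20:11524851-11524934, minus strand: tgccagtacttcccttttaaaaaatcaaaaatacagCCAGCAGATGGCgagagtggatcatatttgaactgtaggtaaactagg
NRP1 contact, chr10:34927527-34927610, minus strand: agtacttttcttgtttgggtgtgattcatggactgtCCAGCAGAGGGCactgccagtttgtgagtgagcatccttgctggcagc
BMP7 and RP4-813D12.3 contact, chr20:55125815-55125898, plus strand: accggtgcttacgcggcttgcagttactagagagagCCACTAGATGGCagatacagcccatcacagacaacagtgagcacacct
TFAP2C contact, chr20:55549592-55549675, minus strand: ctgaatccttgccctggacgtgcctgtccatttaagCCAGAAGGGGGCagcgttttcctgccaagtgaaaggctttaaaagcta
FZD7 contact, chr2:202755295-202755378, minus strand: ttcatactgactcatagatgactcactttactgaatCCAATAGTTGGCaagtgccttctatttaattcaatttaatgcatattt
In 6 of these 7 contacts the match pointed towards the bait, and in that of FZD7 it pointed away. The C3orf49 and FZD7 windows lay in fragments that overlapped an exon, the NRP1 window in an intronic fragment and the other 4 in intergenic fragments.

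Most NEC-only interactions lay close to the score threshold. Their median score was 13.4 in NEC replicate 1 and 13.5 in NEC replicate 2, and the highest scores were 42.8 and 70.4. The lower of both NEC scores was at least 12.5 in 3479 interactions (60.8%), at least 15 in 494 and at least 20 in 40. Just inside the threshold, an interaction of SKI scored 12 and 15.1 and one of INPP5B 12.6 and 12. Just outside it, an interaction of GUCA2A with NEC scores of 15.2 and 12.1 and one of KCNMA1 with 13.1 and 16.4 were left out by an ESC score of 12. Altogether 183 pairs called in both NEC replicates were left out although their highest ESC score was under 12.1, and 1033 were left out only through the merged ESC list.

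Of the 21040 pairs called in both NEC replicates, 27.2% were NEC-only, and of 22948 pairs called in both ESC replicates, 24.9% were ESC-only. The lists held 95283 and 86429 calls in ESCs and 100305 and 81168 in NECs. They give scores without read numbers, and the depth of each call is therefore unknown.

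Many NEC-only contacts had an ESC contact beside them. In 2982 interactions (52.2%) the same bait had an ESC call within 10 kb of the NEC-only PIR, and in 1719 (30.1%) that call was on the neighbouring fragment. Only 42 interactions came from a bait with no ESC call to any fragment on the chromosome of the PIR. Of 3706 PIRs that were not baits, 2080 (56.1%) appeared in an ESC list with another bait, and 1036 of the 3885 baits (26.7%) also had an ESC-only interaction.

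NEC-only interactions spanned longer distances than the other sets. Their median distance was 386 kb (quartiles 208 and 706 kb), against 303 kb for ESC-only interactions, 198 kb for those called in all 4 replicates and 217 kb in the merged NEC list. At 1 Mb or more lay 788 of them (13.8%), against 7.90% of ESC-only interactions and 5.28% of those in all 4 replicates. Under 100 kb lay 450 (7.90%), against 15% and 25.4%. The rule required a call in no ESC list, so these are descriptions of the sets and were not tested.

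**Figure D1:**
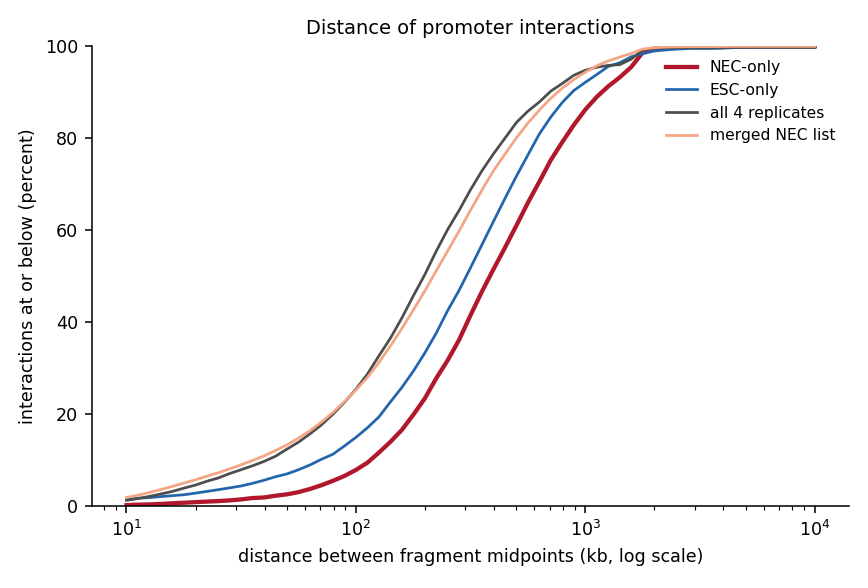
Cumulative share of interactions (percent, vertical axis) at or below a distance between fragment midpoints (kb, log scale) for NEC-only interactions, ESC-only interactions, interactions in all 4 replicates and the merged NEC list. The NEC-only curve lies to the right of the other curves through most of the range, with a median of 386 kb.

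Another bait was the PIR in 1762 interactions (30.8%, 95% Wilson interval 29.6 to 32.0, counting error only), against 31.6% in the merged NEC list, 37.6% in the ESC-only set and 57.7% in the set called in all 4 replicates. Of 3956 PIR ends that were not baits, 1960 (49.5%) were intergenic, 845 (21.4%) overlapped an intron but no exon, and 1151 (29.1%) overlapped an exon. The intergenic share was 46.9% among interactions called in all 4 replicates, 47.6% among pairs called in both NEC replicates, 40.9% in the merged NEC list and 39.4% in the ESC-only set. In 1505 interactions (26.4%) no start of a protein-coding gene lay between the ends, and in 241 of 4232 (5.70%) the PIR lay in the body of the bait's own gene, as it did for all 3 interactions of GREB1L.

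CTCF-like letters were more frequent in these loci than in contacted loci at large, but less frequent than in pairs called in both NEC replicates. In the middle 2000 bases of a PIR, that pattern was found on either strand in 298 of 3195 NEC-only PIRs (9.33%), against 6.22% of 111894 non-bait PIRs of all lists, 7.35% of ESC-only PIRs and 12% of PIRs called in all 4 replicates. The share was 8.21% in the merged NEC list and 10.4% among pairs called in both NEC replicates. Where all matches of a PIR pointed one way, 520 of 771 (67.4%) pointed towards the bait, against 59.1% in the ESC-only set and 72.1% in the set called in all 4 replicates. Pairs in the merged NEC list gave 61.5% and those called in both NEC replicates 70.3%. In these windows, letters of 3 other motifs were less frequent than in all listed PIRs. They were at least as frequent there as in the ESC-only set and the set called in all 4 replicates. The octamer ATGCAAAT was in 15.1% of NEC-only windows, 16.7% of windows at large, 14.5% in the ESC-only set and 12.3% in the set called in all 4 replicates. The homeodomain-like TAATTA was in 50.2%, 52.8%, 46.0% and 43.1%, and the SOX-like ACAATGG in 24.9%, 26.2%, 24% and 23.9% of the same sets. None of these shares was tested. A match is a description of the letters and not a bound site.

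Promoters of listed neural and signalling genes were frequent among the baits, but the lists were chosen with earlier results of these data known. Their shares are therefore a description and were not tested. Of 22223 genes with a start in a bait, 4277 (19.2%) had at least 1 NEC-only interaction. The share was 31 of 49 neural transcription factors (63.3%), 13 of 25 neural crest regulators (52.0%), 36 of 64 signalling ligands, receptors and targets (56.3%) and 19 of 54 axon guidance and adhesion genes (35.2%). It was 2 of 25 pluripotency genes (8%), namely LEFTY1 and ESRRB, and 9 of 72 cytosolic ribosomal protein genes (12.5%). HOX genes had 20 of 39 (51.3%) and mesendoderm regulators 11 of 32 (34.4%). Several of these lists were also frequent in the ESC-only set, where 19.8% of all baited genes had an interaction. That share was 42.9% of neural transcription factors, 40.0% of neural crest regulators, 56.4% of HOX genes and 40.6% of mesendoderm regulators. It was 20.3% of signalling genes and 18.5% of axon guidance genes.

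Contacts were spread thinly over most baits and gathered at a few. Of the 3885 baits, 2875 had exactly 1 NEC-only interaction, 386 had at least 3, 89 had at least 5 and the highest number was 17. Outside the histone genes, FZD7, which encodes a Wnt receptor, had 11. Its bait listed 9 and 16 PIRs in ESC replicates, and in NEC replicates 35 and 37. The NEC-only PIRs lay 58.4 to 234 kb away, 9 on the left and 2 on the right, and the highest-scoring, at chr2:202660432-202667331, scored 19.7 and 23.6. In 8 of the 11 an ESC call of the same bait lay within 10 kb. FZD3, another Wnt receptor, listed 2 PIRs in each ESC replicate and 13 in each NEC replicate, and 6 NEC-only interactions reached 86.9 to 235 kb. Both were named for their NEC-only calls, which are part of these lists, so longer NEC lists at the baits described here and below follow in part from the rule.

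**Figure D2:**
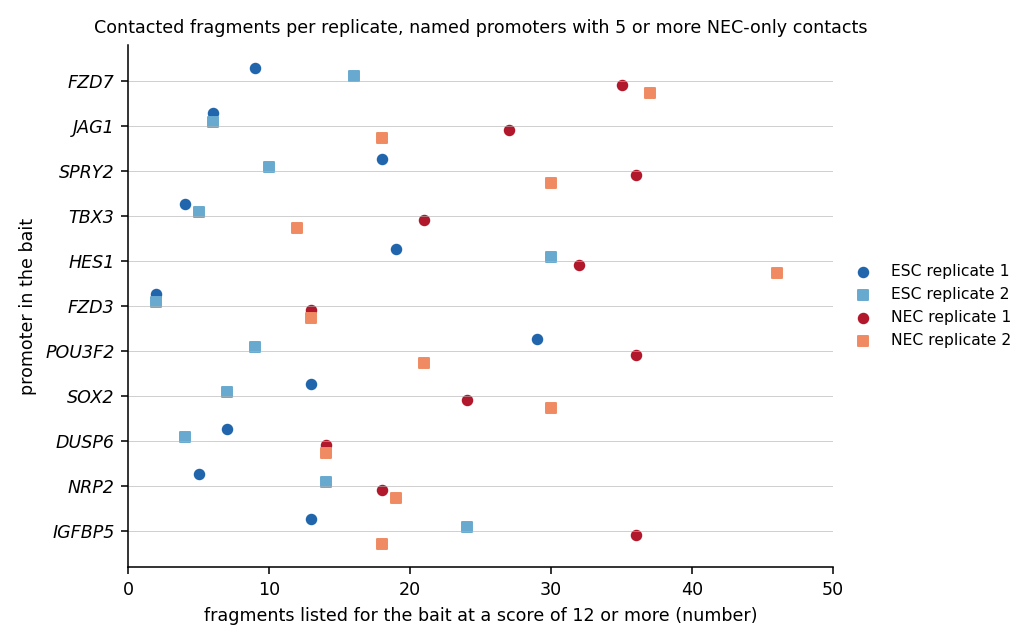
Number of fragments listed at a score of 12 or more (horizontal axis) for 11 baits of named genes with 5 or more NEC-only interactions, with 1 point per PCHi-C replicate. Both NEC points lie above both ESC points for FZD7, JAG1 and SOX2, while the replicates overlap for POU3F2 and IGFBP5.

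Some genes of the Notch pathway, in which a ligand on one cell activates a receptor on its neighbour, had NEC-only contacts, and others had none. JAG1, a Notch ligand, listed 6 PIRs in each ESC replicate and 27 and 18 in the NEC replicates. Its 10 NEC-only PIRs fell into 4 loci, all intergenic and to the right of the bait, at 525 to 876 kb. The highest-scoring, at chr20:11524248-11529641, scored 22.2 and 26.8 at 872 kb and holds the JAG1 window shown above. The next, at chr20:11228797-11230420, scored 21.8 and 21.4 at 575 kb. The bait of DLL1, another Notch ligand, which also holds the start of FAM120B, listed 4 and 1 ESC PIRs and 20 and 10 NEC PIRs, with 3 NEC-only interactions. HES1, a repressor induced by Notch, listed 19 and 30 ESC PIRs and 32 and 46 NEC PIRs, with 6 NEC-only interactions at 75.1 to 365 kb. JAG1, DLL1 and HES1 were named for having at least 3 such interactions. HEY1 had 2 and HEY2 had 1, while DLL3, NOTCH1, HES4 and HES5 had none.

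Some feedback inhibitors of FGF signalling and some secreted factors formed another group. SPRY2, an inhibitor of receptor tyrosine kinase signalling, listed 18 and 10 ESC PIRs and 36 and 30 NEC PIRs, and its 9 NEC-only PIRs lay in 5 loci at 588 to 791 kb on both sides of the gene. DUSP6, a phosphatase that inactivates ERK, listed 7 and 4 ESC PIRs and 14 in each NEC replicate, and its 6 NEC-only PIRs lay in 2 loci. Each of the 6 had an ESC call of the same bait within 10 kb. Of the relatives of SPRY2, SPRY1 had 1 NEC-only interaction and SPRY4 had none. BMP7, a bone morphogenetic protein, listed 0 and 2 ESC PIRs and 7 and 5 NEC PIRs. TGFB2, a TGF-beta ligand, had 4 NEC-only interactions, all at 1222 to 1458 kb. The bait of IGFBP5, which binds insulin-like growth factors, had 5 at 817 to 1069 kb, although its lists of 13 and 24 ESC PIRs and 36 and 18 NEC PIRs overlapped.

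Receptors that guide migrating cells and axons were also among the baits. NRP2, a semaphorin receptor, had 5 NEC-only PIRs at 1354 to 1572 kb, none with an ESC call of the same bait within 10 kb. NRP1, its relative, had 4 at 741 to 1304 kb. EPHA7, an ephrin receptor, listed 2 and 3 ESC PIRs and 13 and 6 NEC PIRs. CXCR4, a chemokine receptor, listed 7 and 3 in ESCs and 17 and 10 in NECs, and its 3 NEC-only PIRs lay 204 to 656 kb away. The highest-scoring, at 264 kb, scored 27.6 and 14.4.

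Baits of transcription factor genes showed the same range of patterns. SOX2, a factor of both pluripotent and neural cells, listed 13 and 7 ESC PIRs and 24 and 30 NEC PIRs, and all 6 NEC-only PIRs lay to the right, with the highest-scoring at chr3:181953319-181955982, 518 kb away, at 17.8 and 17.7. POU3F2, a neural POU factor, had 6 at 702 to 1377 kb, all to the left, but its 29 and 9 PIRs in ESCs overlapped the 36 and 21 in NECs. TBX3, a T-box factor, listed 4 and 5 in ESCs and 21 and 12 in NECs, and none of its 7 NEC-only PIRs had an ESC call of the bait within 10 kb. GREB1L listed no PIR in either ESC replicate and 4 and 9 in the NEC replicates, and its 3 NEC-only PIRs lay 121 to 130 kb into its own gene. PAX6, a central neural regulator, had 1 NEC-only interaction, with 14 and 8 ESC PIRs and 8 and 11 NEC PIRs.

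Some contacted fragments were shared by several promoters. A single bait contacted 4791 of the 5166 PIRs, 291 PIRs had 2 baits and 84 had at least 3. The non-bait PIR with most NEC-only baits, chr6:26113514-26117723 in the HIST1 cluster, was contacted by 8, all of them baits of HIST1 genes at 76.4 to 1727 kb. The ESC replicates listed it with 1 and 2 baits, and the NEC replicates with 9 and 17.

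The densest group of NEC-only interactions joined histone genes. Replication-dependent histone genes, which supply the core and linker histones of new chromatin in S phase, are clustered on chromosome 6 (HIST1) and chromosome 1 (HIST2). Between 26 and 28 Mb of chromosome 6 lay both ends of 289 NEC-only interactions (5.05%) but of only 43 ESC-only interactions, beside 542 called in all 4 replicates. A HIST1 gene started in at least 1 end of 285 of the 289 and in both ends of 124. They were long, with a median of 1560 kb, and 185 (64.0%) spanned 1 Mb or more, against 603 (11.2%) of NEC-only interactions elsewhere, whose median was 371 kb. Calls across the gap between 26.4 and 26.9 Mb made up 206 of the 289.

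**Figure D3:**
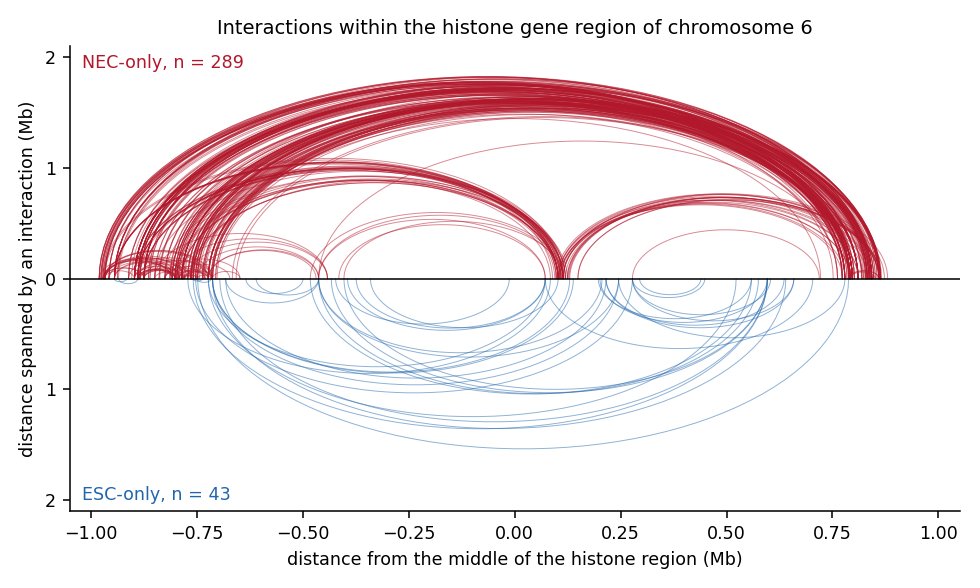
Interactions with both ends in the histone region of chromosome 6, drawn as arcs between fragment midpoints (horizontal axis, distance from the middle of the region in Mb), with height equal to the distance spanned (Mb). The 289 NEC-only arcs above the line mostly cross the gap between 26.4 and 26.9 Mb, while 43 ESC-only arcs lie below it.

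Counts over whole lists are given as a description, since the rule used the same lists. Calls within the region went from 1310 and 1285 across ESC replicates to 1652 and 2145 across NEC replicates. Calls between its outer clusters numbered 714 and 656 in ESCs and 1007 and 1252 in NECs, and calls with a HIST1 start at both ends 609 and 638 against 760 and 1087. These totals include the NEC-only pairs and were not tested. The 2 interactions with the highest lower score both came from the bait of HIST1H2AC and HIST1H2BC, reaching HIST1H2AH and HIST1H2BK at 989 kb with scores of 42.8 and 53.3 and HIST1H3H at 1654 kb with 36.6 and 42.0. HIST1H4L had the most NEC-only interactions of any bait, 17, with 26 and 27 ESC PIRs and 56 and 65 NEC PIRs. HIST1H4C followed with 16, with 16 and 25 ESC PIRs and 44 and 70 NEC PIRs. Of 55 HIST1 genes, 51 started in a bait with a NEC-only interaction.

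Calls between the histone clusters of chromosomes 1 and 6 were listed in NECs and not in ESCs. Of the 19 NEC-only interactions between chromosomes, 5 joined a HIST1 gene start to a HIST2 gene start, a set named here after its values were seen. From the bait of HIST2H2BE on chromosome 1, these reached HIST1H4F with scores of 24 and 12.5, HIST1H2AM and HIST1H3J with 14.5 and 18.9, and HIST1H2AD and HIST1H3D with 12.1 and 25.6. The contact of HIST1H3F with HIST2H2AA3 was called from both ends, with 13.9 and 12.5 from HIST1H3F and 15.6 and 13.7 from HIST2H2AA3. Among all calls between chromosomes, those joining HIST1 to HIST2 starts were 0 of 775 and 0 of 771 for ESC replicates, and 28 of 808 and 36 of 672 for NEC replicates. Both merged lists showed the same contrast, with 0 of 338 in ESCs and 8 of 266 in NECs. The merged NEC list lacked the contact of HIST2H2BE with HIST1H2AM and HIST1H3J. It also lacked the call from HIST1H3F to HIST2H2AA3, and the call from HIST2H2AA3 scored 12.2 there. Of all 5718 NEC-only interactions, 92 were missing from that list. Histone genes of a family are close in sequence, and whether reads were assigned to the wrong copy was not tested.

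Promoter sequences are shown for 3 of the histone baits named above, with ATGCAAAT, TATAAA and CCAAT in capitals on either strand, read on the strand named. For HIST2H2BE and HIST1H4L they are the 150 bases before the gene start, and for HIST1H2BC and HIST1H2AC all 218 bases between the divergent starts. The 150 bases before HIST1H4C, not shown, held 1 CCAAT and neither ATGCAAAT nor TATAAA.
HIST2H2BE, chr1:149858233-149858382, minus strand: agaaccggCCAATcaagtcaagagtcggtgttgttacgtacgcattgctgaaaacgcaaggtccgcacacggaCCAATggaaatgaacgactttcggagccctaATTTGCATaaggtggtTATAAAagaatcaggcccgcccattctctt
HIST1H2BC and HIST1H2AC, chr6:26124155-26124372, plus strand: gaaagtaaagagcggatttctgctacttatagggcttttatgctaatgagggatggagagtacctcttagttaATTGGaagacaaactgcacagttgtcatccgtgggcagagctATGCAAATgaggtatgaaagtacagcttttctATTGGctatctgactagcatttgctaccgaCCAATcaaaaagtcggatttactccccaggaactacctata
HIST1H4L, chr6:27841290-27841439, minus strand: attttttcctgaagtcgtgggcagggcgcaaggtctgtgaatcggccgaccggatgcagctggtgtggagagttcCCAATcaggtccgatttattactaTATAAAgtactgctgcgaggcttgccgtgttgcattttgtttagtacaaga
The octamer, an element long known in H2B promoters, was within 150 bases upstream of 11 of 17 baited H2B genes (64.7%), of 14 of 55 histone genes at NEC-only baits (25.5%), of 25.4% of all 63 baited histone genes and of 0.9% of all 22223 baited genes. TATAAA was found at 29 of those 55 (52.7%), at 50.8% of the 63 and at 5.91% of baited genes, and CCAAT at 46 (83.6%), 84.1% and 22.9%. No H4 gene of 13 had the octamer, which says only that these letters were not in that window.

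Transcript levels were measured in the same cell types but did not enter the rule, so they could be tested. RNA-seq libraries held 19234087 to 25356382 reads counted on genes, and a gene was called at an edgeR adjusted p under 0.05 with a log2 fold change beyond 1.5. Of the 4277 genes at NEC-only baits, 3111 passed the filter on low counts, and of the 1166 others 780 had at most 3 counts in every library. Of those tested, 447 (14.4%) were higher in NECs and 225 (7.23%) were lower, against 11.4% and 9.68% of all 17564 genes tested. Genes whose bait had no NEC-only interaction were higher in 10.1% and lower in 9.13%. At baits with interactions called in all 4 replicates, 12.3% were higher and 8.89% lower, and at baits with ESC-only interactions 10.8% and 9.50%. The ESC libraries shared a sequencing lane and the NEC libraries shared a different lane, which means that lane and cell type cannot be told apart. In bulk RNA, fewer cells of a type and less RNA per cell cannot be told apart either.

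The share of higher genes was larger at baits with more NEC-only interactions. It was 12.2% of 2237 genes at baits with 1, 17.1% of 544 with 2, 22.7% of 251 with 3 or 4, and 31.6% of 79 with 5 or more (95% Wilson interval 22.4 to 42.6). Without histone genes, 39.7% of 58 genes in the last group were higher. Lower genes made up 7.56%, 5.88%, 9.16% and 1.27% of the same groups. At baits with 1, 2, 3 or 4, and 5 or more ESC-only interactions, 10.9%, 10.7%, 11.2% and 3.33% of genes were higher. In these groups 9.24%, 9.54%, 11.2% and 16.7% were lower, and the last group held only 30 genes. Its 95% Wilson intervals were 0.591 to 16.7 for higher and 7.34 to 33.6 for lower genes. Genes that share a bait are not independent, and no trend over these groups was tested. Among 854 NEC-only pairs of baits with tested genes at both ends, both were higher in 21, both lower in 2 and opposite in 10. The same counts were 61, 25 and 19 of 2125 pairs called in all 4 replicates and 15, 20 and 13 of 864 ESC-only pairs.

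**Figure D4:**
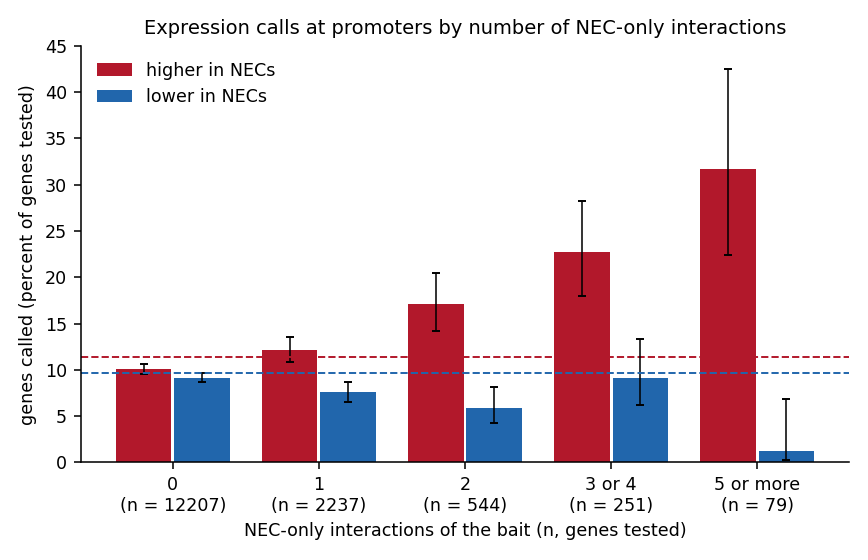
Share of tested genes (percent) called higher or lower in NECs by edgeR, by the number of NEC-only interactions of the bait, with 95% Wilson intervals as error bars and dashed lines at the 11.4% and 9.68% of all genes tested. The share of higher genes goes from 10.1% at baits with none to 31.6% at baits with 5 or more.

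The gene lists were read from the same fit. Of the neural transcription factors at NEC-only baits, 29 were tested, of which 21 were higher and 1 lower, beside 32 higher and 2 lower of 45 in the whole list. Axon guidance genes gave 13 higher and 0 lower of 19, beside 34 and 4 of 54. Signalling genes gave 18 higher and 3 lower of 35, beside 30 and 4 of 63, and neural crest regulators 6 and 2 of 11, beside 13 and 2 of 22. Mesendoderm regulators gave 1 higher, CXCR4, and 4 lower of 8, beside 6 and 11 of 23. Of the pluripotency genes ESRRB was higher and LEFTY1 was lower, while 20 of 25 in the whole list were lower.

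Several promoters with at least 3 NEC-only contacts belonged to genes that rose strongly. JAG1 stood at 45.9 and 36.5 CPM in the ESC libraries and at 167 and 176 CPM in the NEC libraries, with no overlap, and differed by 2.06 on the log2 scale (SE 0.13, adjusted p = 6.76e-05 by edgeR). DLL1 was at 0.848 and 1.01 CPM against 78.7 and 67 (log2 difference 6.27 ± 0.17 SE, adjusted p = 9.60e-06 by edgeR). IGFBP5 went from 11 and 15 CPM to 652 and 798 (log2 difference 5.79 ± 0.20 SE, adjusted p = 1.37e-05 by edgeR). These 3 encode a pair of Notch ligands and a binding protein of growth factors. POU3F2 went from 0.477 and 0.202 CPM to 124 and 104 (log2 difference 8.44 ± 0.25 SE, adjusted p = 1.03e-05 by edgeR), and GREB1L from 0.901 and 0.283 CPM to 251 and 339 (log2 difference 9.04 ± 0.34 SE, adjusted p = 1.44e-05 by edgeR). By edgeR, BMP7, TGFB2, EPHA7, GLI3, DUSP6, CXCR4 and SPRY2 also rose, by 3.45, 3.51, 2.90, 2.34, 2.12, 2.08 and 1.75 on the log2 scale. SPRY2 had 1.44, under the fold threshold, without NEC replicate 2.

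Several transcription factors were at or near 0 in ESCs, so a lower bound is given in place of a fitted fold, against a floor of 3 counts in each ESC library. NR2F1, an orphan nuclear receptor, had 0 and 2 counts in ESCs and 4252 and 3103 in NECs and was at least 1159-fold higher. NR2F2, its relative, with 1 and 2 against 2405 and 1869, was at least 672-fold higher. HOXA2, with 0 and 1 against 732 and 674, was at least 219.7-fold higher. All 3 had high counts in both NEC libraries. For TFAP2A and TFAP2B, factors of early ectoderm and neural crest, the NEC libraries differed widely, with 117 and 17 counts for TFAP2A and 339 and 36 for TFAP2B.

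**Figure D5:**
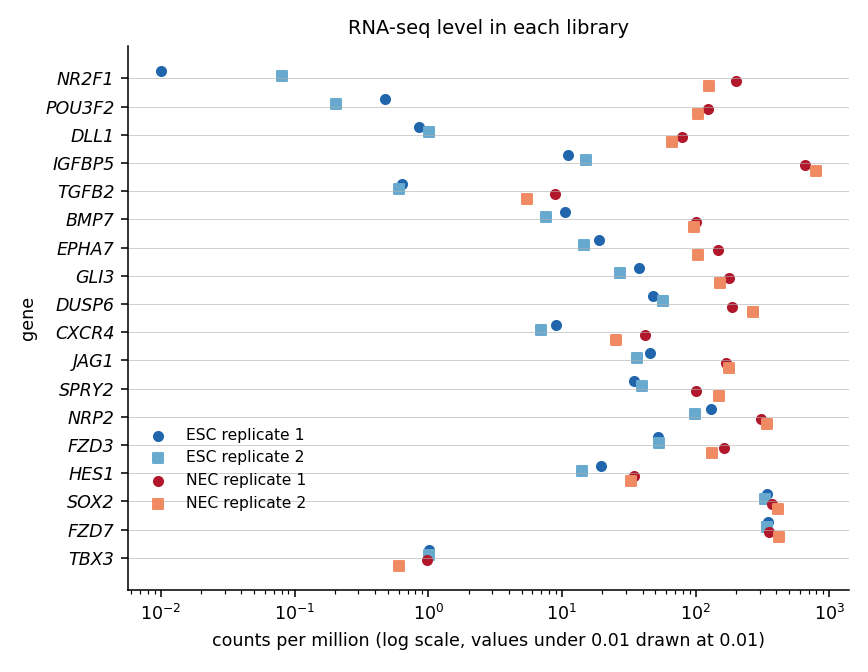
RNA-seq level (CPM, log scale, values under 0.01 drawn at 0.01) of 18 genes at NEC-only baits, with 1 point per library. NEC points lie far above ESC points for NR2F1, POU3F2 and DLL1, and close to them for SOX2, FZD7 and TBX3.

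Other promoters with at least 6 NEC-only contacts belonged to genes that did not pass the test. FZD7 stood at 349 and 341 CPM in ESCs and at 352 and 422 in NECs (log2 difference 0.17 ± 0.12 SE, adjusted p = 0.251 by edgeR). SOX2 was at 343 and 329 CPM against 370 and 410 (log2 difference 0.21 ± 0.10 SE, adjusted p = 0.106 by edgeR), and TBX3 was near 1 CPM in each group (log2 difference -0.35 ± 0.37 SE, adjusted p = 0.441 by edgeR). These 3 genes had 11, 6 and 7 NEC-only interactions. FZD3, at 51.9 and 52.9 CPM against 162 and 133, stayed just under the fold threshold with a log2 difference of 1.49 ± 0.12 (SE, adjusted p = 0.000151 by edgeR), and HES1 had 1.01 ± 0.17 (SE, adjusted p = 0.00240 by edgeR).

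Genes that fell in NECs also had NEC-only contacts. LEFTY1, a Nodal antagonist of pluripotent cells, went from 382 and 361 CPM to 0.140 and 0.405, a log2 difference of -10.34 ± 0.23 (SE, adjusted p = 5.87e-06 by edgeR), with 1 NEC-only and 4 ESC-only interactions. NTS, which encodes neurotensin, fell by 6.94 on the log2 scale, and NR3C1, the glucocorticoid receptor, by 4.84, each with 1 NEC-only interaction. TFAP2C, with 3 NEC-only interactions, fell by 2.06, and MYOCD, a smooth and cardiac muscle coactivator, also with 3, by 2.24.

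Transcript levels of histone genes at these baits were read from the same fit. Of all 17564 genes tested, 11.4% were higher in NECs and 9.68% lower, and no difference from these shares was tested. Of the 51 HIST1 genes at NEC-only baits, 21 passed the count filter, 1 was higher, none was lower in the edgeR test, and the median log2 fold change was -0.39. The gene that was higher, HIST1H1E, had 2 counts in each ESC library and 21 and 11 in NECs. HIST2H2BE on chromosome 1, with 10 NEC-only interactions, rose from 2.28 and 2.18 CPM to 9.31 and 5.35 (log2 difference 1.71 ± 0.32 SE, adjusted p = 0.00419 by edgeR), but had a log2 difference of 1.27, under the threshold, without NEC replicate 1. Most histone messages carry no poly(A) tail and the libraries were made from poly(A) RNA, so these levels cover only a part of histone transcription.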

How the data were processed

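PCHi-C and RNA-seq were each available for 2 ESC and 2 NEC replicates. The deposited interaction lists give a CHiCAGO score for each pair of HindIII fragments on GRCh37, and the authors had filtered them at a score of 12. The deposited gene table holds raw counts per gene made by the authors without regard to strand. The submitters' processing notes name Bowtie 1.0.0 and TopHat2 2.0.8b. Pairs were joined by fragment position with pandas 2.3.3, and PIRs were placed against GENCODE release 44 on GRCh37. Counts were tested with edgeR 4.0.16 (quasi-likelihood, TMM, Benjamini-Hochberg adjustment over 17564 genes) in R 4.3.3. DESeq2 1.42.0 served as an alternative. In the count table, 63 rows repeat a gene identifier and were kept apart. Scores used by the rule were not tested, and no sequence was drawn from chromosome 8. Results for some named genes are not reported here.

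Named genes were those the study gives as examples, the 12 baits with most NEC-only interactions, the 10 highest-scoring interactions, the 5 largest and 5 smallest fold changes of genes with an average log2 CPM of at least 3, list members with at least 3 interactions, the most shared PIRs and the 3 longest interactions. Members and gene lists were chosen with earlier results of these data known. The edgeR fit was tried on simulated counts.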

Additional observations from a re-analysis of the deposited data

How the results depend on the processing

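Requiring a score of 15 in both NEC replicates left 494 interactions of 383 baits, with a median distance of 572 kb and 37.7% bait PIRs, and 52 higher and 23 lower genes (17.4% and 7.69%). Counting an ESC call within 10 kb as present left 2736 interactions of 2273 baits, with 424 kb and 45.4%, and 244 higher and 118 lower genes (13.5% and 6.54%). Bait pairs counted once and absent from ESC lists in either direction gave 28.4% bait PIRs. Dropping the merged ESC list from the rule gave a median of 338 kb. Leaving out 1 PCHi-C replicate gave 6369 to 62997 interactions, 4178 to 18383 baits, 394 to 614 kb and 18.1 to 33.7% bait PIRs. The counts were 6369 and 6546 without ESC replicates 1 and 2, and 52835 and 62997 without NEC replicates 1 and 2. With no fold threshold, 5529 genes were higher and 5209 lower, of which 1113 and 814 were at NEC-only baits. Leaving out 1 RNA-seq library gave 403 to 479 higher and 216 to 255 lower genes at NEC-only baits, and 1770 to 2213 and 1524 to 1892 over all genes.

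Same-numbered RNA-seq libraries deviated together with a correlation of only 0.061, and the labels do not say whether they share more than a number. A fit with the replicate block called 446 higher and 230 lower genes at NEC-only baits, and 1987 and 1711 over all genes. Without interactions inside the histone region, an alternative chosen after seeing the data, 5429 interactions remained with a median of 371 kb. Among 78 named genes with a fold change, 7 lost a call under at least 1 alternative (POU3F1, HIST2H2BE, SPRY2, SALL1, NRP2, RGMB and TFAP2B) and 4, none of them called, changed sign. ARID1A had -0.016 with DESeq2's size factors and in DESeq2 with and without shrinkage, and -0.14 to 0.14 when 1 library was left out. HIST1H2BC had 0.046 with library size alone and -0.15 to 0.16 when 1 library was left out. In the same way HIST1H4J ranged from -0.49 to 0.59 and HIST1H4K from -0.74 to 0.24. The cause of these changes was not tested.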

Other observations

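Chromosome 6 held 667 NEC-only interactions (11.7%), against 7.20% of all calls in the merged NEC list and 6.49% of ESC-only interactions. The longest NEC-only interactions within a chromosome came from a bait on chromosome 4 with no gene start, at 136800 kb, and from ZNF697 on chromosome 1, at 24850 and 24890 kb.

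Ribosomal protein genes were few among the baits. Of the 9 that had a NEC-only interaction, RPL21, RPL7, RPL17 and RPS10 rose in the edgeR test, by 3.85, 2.78, 2.49 and 1.72 on the log2 scale, and none fell, beside 17 higher and 0 lower of all 72 in the list. RPS24, which shares a bait with POLR3A and had 4 NEC-only interactions at 948 to 1194 kb, had a log2 fold change of 0.75. Ribosomal protein genes have many near-identical pseudogene copies, so their counts are uncertain.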
